A study of Mus musculus with 24 samples.

Results

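The genes described here are 39 genes of the lysosome, taken by symbol from the count table and measured in whole mouse liver after 20 weeks on a high-fat diet. They comprise 13 cathepsins, 2 further proteases, glycan and sulfate hydrolases, a lipase and phosphatases, lipid transfer proteins and precursors, membrane proteins, 1 isoform of a proton pump subunit and 2 transcription factors. All 39 were found among the 56205 genes of the table, and all 39 had enough counts to be tested. The samples were livers of male and female C57BL/6J mice, an inbred strain with no introduced allele, fed either the high-fat diet that the labels call FFD (12 libraries) or a control diet (12 libraries), both for 20 weeks and from adult age. The study's methods give a diet rich in palm oil, fructose and cholesterol, and the series design gives 6 animals per diet and sex, but the labels of the libraries do not state a sex. Total RNA of the whole liver was used, so every cell type of the organ contributed to each value. The libraries are numbered replicate 1 to 12 within a diet. The question put to the counts was which lysosomal genes differed between the diets, in which direction and by how much.

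Lysosomes are acidic organelles that break down proteins, glycans and lipids delivered by endocytosis, phagocytosis and autophagy. Cathepsins are their main proteases, a proton pump (the V-ATPase) keeps them acidic, and heavily glycosylated membrane proteins line their inner face. Most liver cells are hepatocytes, but macrophages are particularly rich in lysosomes. Several of the genes described here, such as Ctss, Cd68 and Laptm5, are known chiefly from leukocytes, while others, such as Ctsd, Lamp1 and Ctsl, are transcribed in nearly all cells. TFEB and TFE3 are transcription factors that bind a short sequence, the CLEAR element, near the start of many lysosomal genes. PU.1, a factor of myeloid cells, binds sequences with an ETS core.

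The promoters of 4 members show both kinds of sequence, and they are printed because the members that carry them did not all move alike. RefSeq promoters, 300 bases each from 250 before to 50 after a start site, matched 32 of the 39 members (40 windows, build GRCm38). Each is given on the gene's strand. Capitals mark CACGTG, with the letters that extend it to GTCACGTG on either strand (the CLEAR element without its last letters), and in Ctss the letters GAGGAAGT of an ETS core, read on the opposite strand. The windows are Ctsd at chr7:142387778-142388077 (minus strand), Lamp1 at chr8:13158911-13159210 (plus strand), Lgmn, the second of its windows, at chr12:102439043-102439342 (minus strand) and Ctss at chr3:95526536-95526835 (plus strand).
Ctsd: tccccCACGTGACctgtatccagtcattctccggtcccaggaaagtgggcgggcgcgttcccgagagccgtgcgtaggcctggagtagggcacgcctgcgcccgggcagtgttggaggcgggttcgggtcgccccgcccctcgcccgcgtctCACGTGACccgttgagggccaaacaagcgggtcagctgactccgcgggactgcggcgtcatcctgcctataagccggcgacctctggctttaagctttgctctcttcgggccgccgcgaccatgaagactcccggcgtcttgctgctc
Lamp1: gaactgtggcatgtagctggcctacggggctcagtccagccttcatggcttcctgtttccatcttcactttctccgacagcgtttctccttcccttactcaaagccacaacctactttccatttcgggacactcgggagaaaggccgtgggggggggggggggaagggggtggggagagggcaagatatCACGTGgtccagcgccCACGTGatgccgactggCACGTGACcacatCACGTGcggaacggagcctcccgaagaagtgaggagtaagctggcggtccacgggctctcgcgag
Lgmn: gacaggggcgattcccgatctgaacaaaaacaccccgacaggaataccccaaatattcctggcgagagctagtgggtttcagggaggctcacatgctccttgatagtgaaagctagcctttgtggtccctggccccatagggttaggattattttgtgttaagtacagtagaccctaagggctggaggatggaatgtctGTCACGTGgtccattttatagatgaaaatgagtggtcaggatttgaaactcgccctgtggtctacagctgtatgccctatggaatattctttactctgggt
Ctss: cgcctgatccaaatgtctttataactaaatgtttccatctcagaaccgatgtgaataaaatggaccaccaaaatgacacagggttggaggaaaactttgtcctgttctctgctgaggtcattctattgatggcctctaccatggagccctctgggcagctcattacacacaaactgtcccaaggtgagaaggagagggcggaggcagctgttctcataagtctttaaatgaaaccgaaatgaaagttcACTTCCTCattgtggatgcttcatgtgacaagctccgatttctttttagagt
GTCACGTG stood in a window of 7 members (Ctsa, Ctsd, Gla, Glb1, Lamp1, Lgmn and Mcoln1), or 21.9% of the 32, against 2.55% of all 27025 genes with a window. CACGTG alone, which is part of GTCACGTG, stood in 10 members (31.2%, against 8.09% of all genes), the 3 others being Ctsf, Ctsl and Gaa. GAGGAAGT stood in 4 members, Ctsc, Ctss, Gla and Gusb (12.5%, against 3.69%). Of the 12 members that were called higher on the FFD below, 8 had a window, and 1 of these, Lgmn, held GTCACGTG. The match in Lgmn was in the second of its 2 windows and not in the first. Of the 27 that were not called, 24 had a window and 6 held it. Ctss and Gusb were the called members with GAGGAAGT. A match is a match of letters and not a measured site.

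Depth ranged from 16490817 to 21213070 counts on genes per FFD library and from 14468418 to 22112552 per control library, and 17913 genes passed a filter of at least 1 count in at least 12 libraries. Levels below are CPM, counts relative to the library total after scaling by edgeR's TMM method, whose factors ranged from 0.994 to 1.34 on the FFD and from 0.679 (replicate 10) to 1.01 on the control diet. The libraries fell into 2 sets that the diet did not explain. Replicates 1 to 6 of both diets had 2664 to 6285 counts of Xist, a transcript of the inactive X chromosome, and 0 of the Y-linked Ddx3y. Replicates 7 to 12 had 0 to 3 counts of Xist and 448 to 1016 of Ddx3y. The 2 sets thus have the X and Y transcripts of female and of male animals, with 6 libraries each per diet, as in the series design. No label states the sex of a library, and any other difference between replicates 1 to 6 and 7 to 12 would fall on the same split. Hepatocyte genes defined the tissue in every library, with Alb alone at 3.25 to 9.02% of all counts. Markers of neutrophils summed to 161 CPM in FFD replicate 3 and to between 1.37 and 3.96 CPM in the other FFD libraries, and the TMM factor was highest in FFD replicate 9. Values without those 2 libraries and control replicate 10 were therefore computed as well.

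On the FFD, 12 of the 39 members were higher and 0 were lower. A gene was called where edgeR's quasi-likelihood test gave a Benjamini-Hochberg adjusted p of at most 0.01 and the log2 fold change exceeded 0.5 in size. Of all genes tested, 13.2% were called higher and 4.99% lower. The 12 called members were Ctsb, Ctsk, Ctss, Ctse, Lgmn, Galns, Gusb, Hexa, Psap, Laptm5, Cd68 and Atp6v0d2. The log2 fold changes of the 39 ran from -0.45 (Lamp2) to 2.49 (Ctse) with a median of 0.20, against -0.03 over all genes, and 29 of the 39 were above 0. Ctss, Lgmn, Psap, Laptm5 and Cd68 were separated, every FFD library lying above every control library, which held for 1.48% of all genes. No member lay lower in every FFD library (0.402% of all genes). DESeq2 and limma-voom also called 12 members higher and 0 lower. With edgeR, 21 members were higher and 6 were lower at an unadjusted p under 0.05, a cutoff for which the share of all genes is not given here. At an adjusted p of at most 0.05 with no fold threshold, 19 members were higher (20.7% of all genes) and 4 were lower (18.9% of all genes), the 4 being Ctsf, Ctsh, Lamp2 and Scarb2. Scaling by library totals alone moved the median of all genes to 0.26, with 3827 genes higher and 226 lower in place of 2372 and 894, and called 19 members higher (21.4% of all genes) and 0 lower. Without the 3 libraries named above, 14 members were called higher and 0 lower, and the share of all genes in that fit is not given here.

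**Figure D1:**
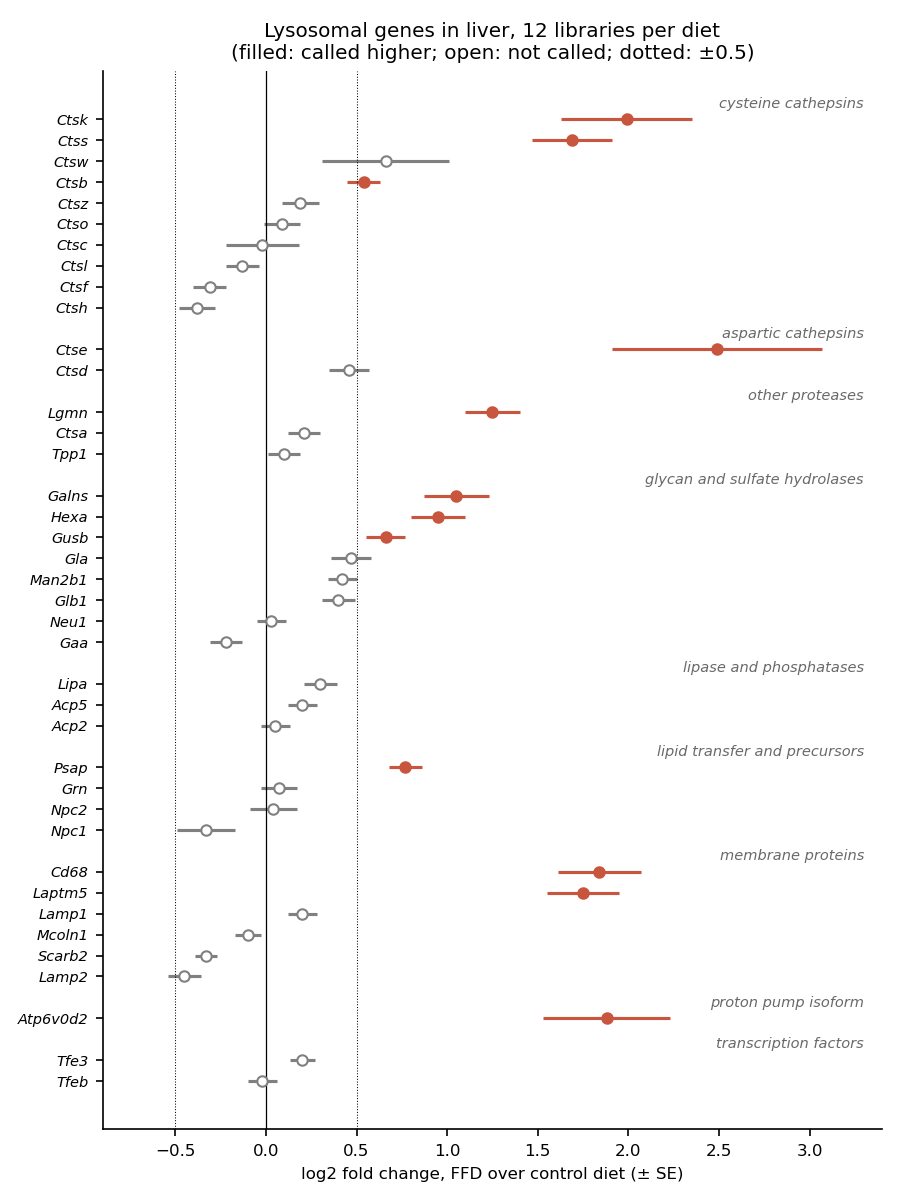
Log2 fold change of each of the 39 members, FFD over control diet, with its standard error (12 libraries per diet), grouped by role. Filled points passed the thresholds and open points did not, and dotted lines mark a change of 0.5 in either direction. The 12 filled points lie to the right of 0.5, and the lowest open point is Lamp2 at -0.45.

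Among the 10 cysteine cathepsins, Ctsb, Ctsk and Ctss rose and 7 did not pass the test. The group's median log2 fold change was 0.14. Ctss encodes cathepsin S, a protease of antigen-presenting cells that trims the invariant chain of MHC class II. It was at 77.3, 109 and 166 CPM (lowest, median and highest library) on the FFD and at 16.1, 31.7 and 73.9 CPM on the control diet. All 12 FFD libraries lay above all 12 control libraries, the closest control library being replicate 6. The means were 118 ± 33.9 and 36.7 ± 18.0 CPM (SD, n = 12 each), a log2 fold change of 1.69 (SE 0.22, adjusted p = 3.27e-06, edgeR). Ctsk, the collagen-degrading cathepsin K known from osteoclasts, was scarce, at 0.498, 2.64 and 5.96 CPM on the FFD and 0.216, 0.777 and 1.98 on the control diet. Of the FFD libraries, 8 lay above the highest control library, replicate 11, and the lowest rested on 10 counts. The log2 fold change of Ctsk was 1.99 (SE 0.36, adjusted p = 1.02e-04, edgeR).

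Ctsb encodes cathepsin B, an abundant endopeptidase of most cells. It ranged from 941 to 1340 CPM on the FFD, with a median of 1230, and its control libraries lay between 622 and 1140 with a median of 838. In 9 FFD libraries it was above the highest control library. Its mean was 1200 ± 112 CPM (SD, n = 12) on the FFD and 829 ± 150 (SD, n = 12) on the control diet, and its log2 fold change of 0.54 (SE 0.09, adjusted p = 7.26e-05, edgeR) stood just above the threshold of 0.5. In the annotation, 12.8% of the exon bases of Ctsb overlap Fdft1 on the opposite strand, and whether reads were counted by strand is not given in the sources used here.

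The cysteine cathepsins that were not called had log2 fold changes between -0.38 and 0.66. Ctsl, the broadly expressed cathepsin L, was at 452, 511 and 665 CPM on the FFD and 459, 566 and 775 on the control diet. The diets overlapped over nearly the whole range, at a log2 fold change of -0.13 (SE 0.09, adjusted p = 0.237), and library totals alone turned its sign. Other genes overlap 26.8% of its exon bases. Ctsh, an aminopeptidase, was at 178 CPM (150 to 223) on the FFD and 231 CPM (179 to 353) on the control diet, given as the median and range. Its log2 fold change of -0.38 had an adjusted p of 0.00465 (edgeR), short of the fold threshold. Ctsf stood at -0.31 (adjusted p = 0.00574, edgeR), Ctsz at 0.19, Ctso at 0.09 and Ctsc, which activates granule proteases of leukocytes, at -0.02, a sign that turned under most settings. Ctsw, a cathepsin of cytotoxic lymphocytes, was near the detection limit at 0.335 to 3.13 CPM on the FFD and 0.118 to 1.80 on the control diet, where 3 counts equal 0.167 CPM in the median control library.

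Of the 2 aspartic cathepsins, the scarce Ctse rose and the abundant Ctsd did not pass the test. Ctsd, which encodes cathepsin D, was at 503, 692 and 860 CPM on the FFD and at 394, 462 and 765 CPM on the control diet. Of the FFD libraries, 3 lay above the highest control library, replicate 10. The log2 fold change was 0.46 (SE 0.11, adjusted p = 0.00181, edgeR), just below the fold threshold, and 0.53 without control replicate 10, where it passed. A predicted gene on the same strand overlaps 34.4% of the exon bases of Ctsd, so its counts are uncertain. Ctse, a cathepsin of stomach epithelium and some immune cells, was at 0.112, 0.548 and 5.97 CPM on the FFD and at 0.000, 0.114 and 0.644 CPM on the control diet. The highest value was that of FFD replicate 3, the library with neutrophil markers at 161 CPM, and 5 FFD libraries lay above the highest control library. The log2 fold change was 2.49 (SE 0.58, adjusted p = 0.00143, edgeR) with that library and 1.68 (adjusted p = 0.00376) without it.

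Of the remaining proteases, Lgmn rose and Ctsa and Tpp1 did not pass the test. Lgmn encodes legumain, an asparaginyl endopeptidase that also matures cathepsins. It was at 107, 121 and 196 CPM on the FFD and at 30.8, 51.3 and 93.7 CPM on the control diet. The diets did not overlap, and control replicate 6 was again the highest control library. The log2 fold change was 1.25 (SE 0.15, adjusted p = 1.41e-06, edgeR). Ctsa, a serine carboxypeptidase that protects Neu1 and Glb1, stood at 0.21 and Tpp1, a tripeptidyl peptidase, at 0.10 on the log2 scale, with adjusted p of 0.0791 and 0.395 (edgeR).

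The cathepsin transcripts were also taken as a pool, to see its make-up on each diet. Per kilobase of exon, the 13 cathepsins summed to 888, 996 and 1120 CPM per kb on the FFD (lowest, median and highest library) and to 637, 724 and 1010 on the control diet, so the diets overlapped. Ctsd held the largest share in both, 29.7% ± 2.48 on the FFD and 27.5% ± 2.98 on the control diet (SD, n = 12 each). The share of Ctss was 8.71% ± 2.22 against 3.35% ± 1.22, ranging from 6.38 to 12.9% on the FFD and from 1.86 to 5.41% on the control diet. Ctsh lay the other way, at 4.18% ± 0.545 against 6.91% ± 0.939, and Ctsl at 8.20% ± 1.55 against 11.4% ± 1.35. The shares of Ctss, of Ctsh and of Ctsf (0.546% ± 0.0795 against 0.862% ± 0.111) did not overlap between the diets, and shares were not tested. Shares sum to a fixed total, so a larger share of one gene lowers those of the others.

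**Figure D2:**
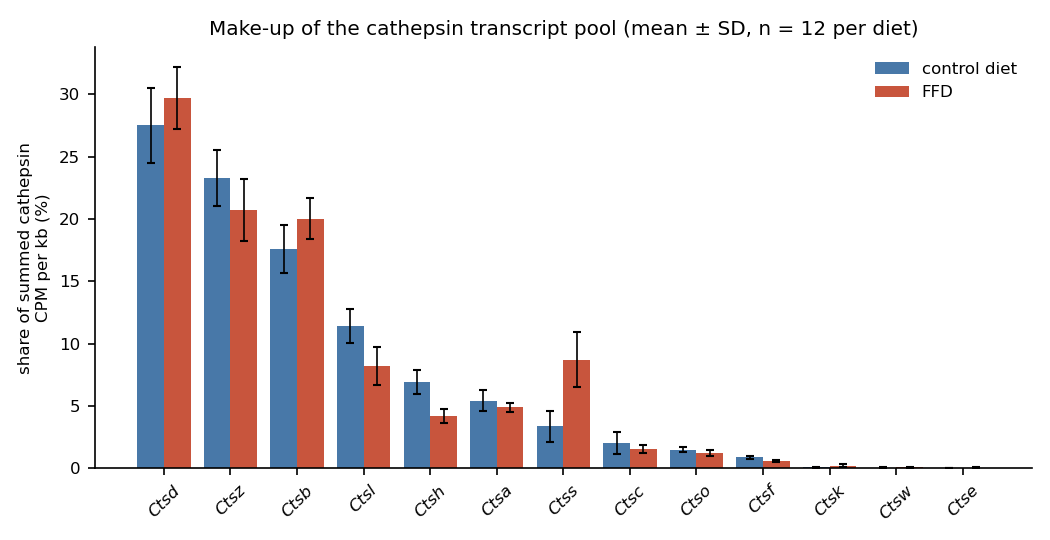
Share of each cathepsin in the summed cathepsin level of a library (CPM per kilobase of exon, percent), as the mean with its SD over 12 libraries per diet. Ctss is at 8.71% on the FFD and 3.35% on the control diet, and Ctsd leads in both diets.

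Of the 8 glycan and sulfate hydrolases, Galns, Gusb and Hexa rose and 5 did not pass the test, with a median log2 fold change of 0.44. Hexa encodes the alpha subunit of beta-hexosaminidase, which degrades gangliosides. It was at 72.5, 104 and 119 CPM on the FFD and at 29.5, 50.8 and 89.1 CPM on the control diet, and 10 FFD libraries lay above the highest control library, replicate 6. Its log2 fold change was 0.95 (SE 0.15, adjusted p = 3.61e-05, edgeR), and another gene overlaps 12.8% of its exon bases. Galns, a sulfatase of keratan and chondroitin sulfate, was at 6.75, 13.1 and 18.6 CPM on the FFD and at 3.16, 6.28 and 10.1 CPM on the control diet. Its log2 fold change was 1.05 (SE 0.18, adjusted p = 5.71e-05, edgeR). Gusb, beta-glucuronidase, was at 39.2, 51.4 and 69.2 CPM against 18.3, 34.7 and 43.1, a log2 fold change of 0.66 (SE 0.11, adjusted p = 4.61e-05, edgeR).

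Gla, Glb1 and Man2b1, which remove galactose or mannose from glycans and glycolipids, passed the p threshold but not the fold threshold. Their log2 fold changes were 0.47, 0.40 and 0.42, with adjusted p of 0.00119, 6.42e-04 and 1.64e-04 (edgeR). In Glb1 and Man2b1, 10 FFD libraries each lay above the highest control library, and in Gla 6 did. Neu1, a sialidase, stood at 0.03, and Gaa, which degrades lysosomal glycogen, at -0.22 (adjusted p = 0.0582), a sign that library totals alone turned. The lipase Lipa, which frees cholesterol and fatty acids from lipoproteins, was at 171, 248 and 282 CPM on the FFD and at 128, 202 and 233 CPM on the control diet. Its log2 fold change of 0.30 had an adjusted p of 0.0105 (edgeR), and 8 FFD libraries lay above the highest control library. The phosphatases Acp5 and Acp2 stood at 0.20 and 0.05, and neither was called.

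Among lipid transfer proteins and precursors, Psap rose and Grn, Npc1 and Npc2 did not pass the test. Psap encodes prosaposin, the precursor of small activators of sphingolipid hydrolysis. It was at 799, 927 and 1110 CPM on the FFD and at 422, 547 and 780 CPM on the control diet, with no overlap between the diets. The log2 fold change was 0.77 (SE 0.09, adjusted p = 6.94e-07, edgeR), the lowest adjusted p of the 39. Npc1 and Npc2 pass cholesterol out of the lysosome. Npc1 was at 63.2, 91.0 and 152 CPM on the FFD and at 57.1, 136 and 185 CPM on the control diet (log2 fold change -0.33, SE 0.16, adjusted p = 0.0894, edgeR). Npc2 stood at 0.04 and Grn, which encodes progranulin, the precursor of granulin peptides, at 0.07. Both had wide overlap between the diets. Grn was at 380 to 509 CPM on the FFD and 275 to 525 on the control diet.

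Of the 6 membrane proteins, Cd68 and Laptm5 rose and 4 did not pass the test. Cd68, a glycoprotein of macrophage lysosomes, was at 19.5, 26.5 and 47.6 CPM on the FFD and at 3.26, 8.29 and 17.6 CPM on the control diet. Laptm5, a transmembrane protein of leukocyte lysosomes, was at 53.2, 72.7 and 115 CPM on the FFD and at 9.77, 22.6 and 44.8 CPM on the control diet. Neither gene overlapped between the diets, and control replicate 6 was the highest control library for both. The log2 fold changes were 1.84 (SE 0.23, adjusted p = 2.13e-06, edgeR) for Cd68 and 1.75 (SE 0.20, adjusted p = 8.51e-07, edgeR) for Laptm5.

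The other membrane proteins stood close to 0 or below it. Lamp2, the membrane glycoprotein needed for chaperone-mediated autophagy, was at 253, 381 and 427 CPM on the FFD and at 425, 467 and 669 CPM on the control diet. Of the FFD libraries, 11 lay below the lowest control library. Its log2 fold change of -0.45 (SE 0.09, adjusted p = 4.28e-04, edgeR) missed the fold threshold and became -0.16 with library totals alone. Scarb2, the receptor that carries beta-glucocerebrosidase to the lysosome, was at 117, 135 and 155 CPM against 152, 171 and 193. Again 11 FFD libraries lay below every control library, at a log2 fold change of -0.33 (SE 0.06, adjusted p = 8.20e-05, edgeR) that became -0.04 with library totals alone. Lamp1, the companion of Lamp2, stood at 0.20 (adjusted p = 0.0382) and the calcium channel Mcoln1 at -0.10 (adjusted p = 0.296).

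Atp6v0d2, an isoform of a V-ATPase subunit known from osteoclasts and macrophages, rose, and the transcription factors did not pass the test. It was at 5.07, 9.24 and 14.6 CPM on the FFD and at 0.197, 1.61 and 5.26 CPM on the control diet, and 11 FFD libraries lay above the highest control library. The lowest control value, of replicate 12, rested on 3 counts. The log2 fold change was 1.88 (SE 0.35, adjusted p = 1.44e-04, edgeR). Tfeb was at 10.9, 13.3 and 15.9 CPM on the FFD and at 10.6, 13.8 and 17.8 CPM on the control diet, ranges that nearly coincide. Its log2 fold change was -0.02 (SE 0.08, adjusted p = 0.892), and its sign turned under 4 of the settings fitted to all 24 libraries. Tfe3 was at 24.1, 28.4 and 37.1 CPM against 18.7, 26.2 and 28.1, a log2 fold change of 0.20 (SE 0.07, adjusted p = 0.0283, edgeR).

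**Figure D3:**
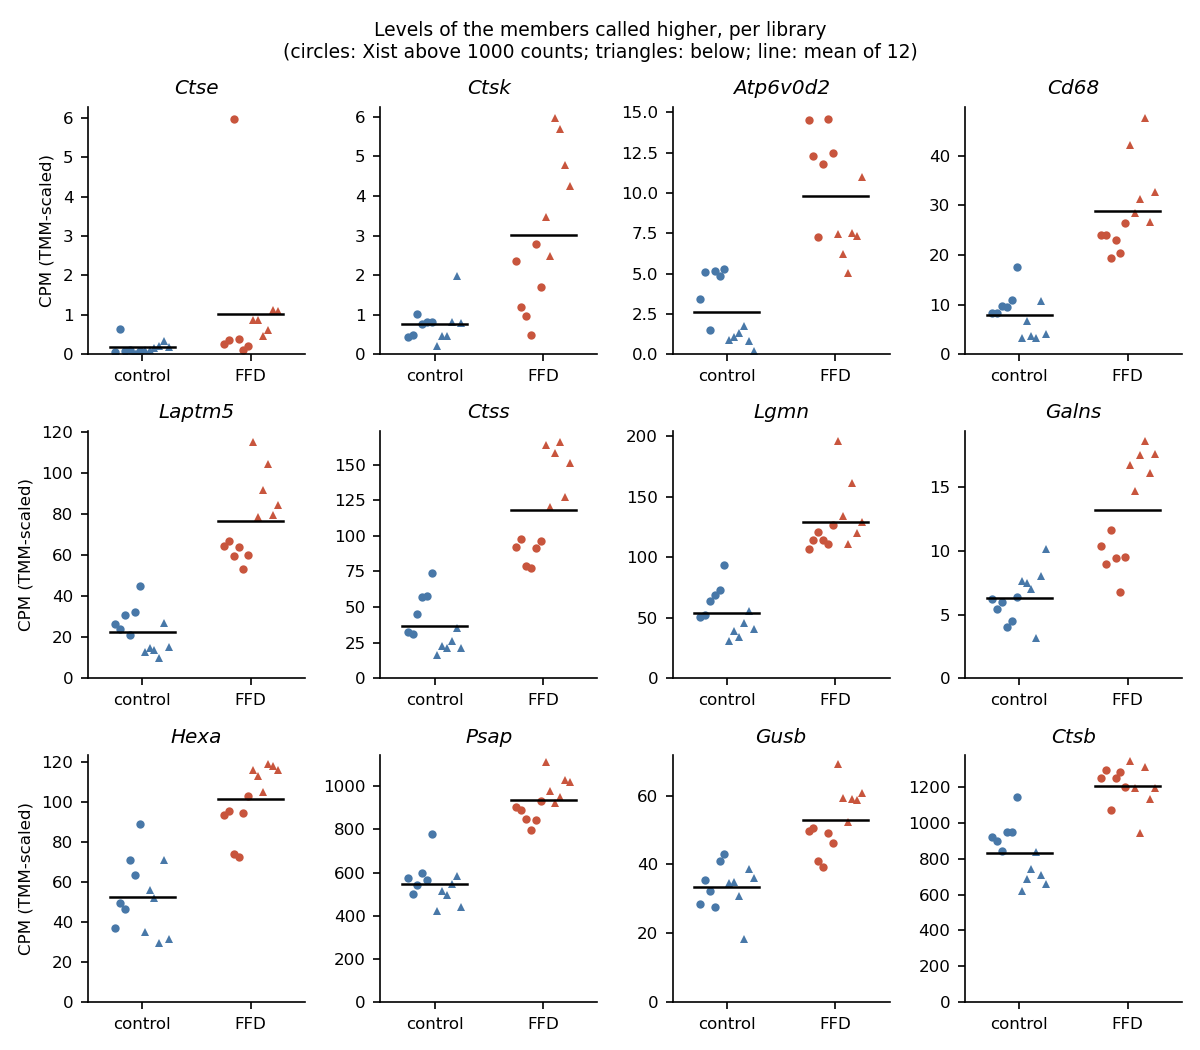
Level of each of the 12 called members in every library, in CPM on axes that start at 0. Circles are replicates 1 to 6 (Xist above 1000 counts), triangles replicates 7 to 12, and lines the mean of 12. In Ctss, Laptm5, Cd68, Lgmn and Psap no control point reaches an FFD point, and in Ctse 1 FFD library, at 5.97 CPM, stands far above the rest.

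Per kilobase of exon, the order of levels on the FFD was led by Psap (341 CPM per kb), Ctsd (296), Lamp1 (266), Ctsz (207) and Ctsb (199), and on the control diet by Lamp1 (231), Ctsd (216), Psap (200), Ctsz (181) and Ctsb (137). Ctse and Ctsw had the lowest levels on both diets. Spread between libraries also differed. On the control diet the coefficient of variation was 76.0% for Atp6v0d2, 52.1% for Cd68, 49.1% for Ctss and 44.7% for Laptm5, against 10.8% for Lamp1 and 7.53% for Scarb2. On the FFD it was 34.1% for Atp6v0d2, 29.5% for Cd68, 28.6% for Ctss and 25.1% for Laptm5, and 155% for Ctse because of its 1 high library. The scarce Ctse, Ctsw and Ctsk stood at 96.1, 68.2 and 59.1% on the control diet, and Ctsw and Ctsk at 54.8 and 60.8% on the FFD. All of these values span the 2 sets of libraries. All 39 members together summed to 6840, 7720 and 8430 CPM on the FFD and to 5550, 6220 and 7760 on the control diet.

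Markers of other cells moved with the diet beside these genes. General macrophage markers summed to 694 to 1300 CPM on the FFD and 212 to 644 on the control diet, 9 of 10 being called higher, and the control maximum was that of replicate 6, the next being 515. Markers of recruited macrophages summed to 341 to 1230 against 82.0 to 315 CPM, 11 of 12 higher and 1 lower. Kupffer cell markers summed to 351 to 1010 against 291 to 522 CPM, 2 of 8 higher and 1 lower, and Clec4f, their first gene, stood at 0.20 on the log2 scale (adjusted p = 0.591). Hepatocyte markers summed to 43300 to 101000 against 95400 to 145000 CPM, 7 of 10 lower, Alb at -0.72 (adjusted p = 0.00211, edgeR). In whole liver, a change in the number of cells of a type and a change in RNA per cell cannot be told apart, and the part of either in the values of the members was not tested.

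The remaining marker lists moved as follows. Stellate cell and fibroblast markers summed to 378 to 893 against 164 to 444 CPM, 6 of 9 higher. Cholangiocyte markers summed to 31.6 to 887 against 27.3 to 131 CPM, 5 of 6 higher, a list that shares Spp1 with that of recruited macrophages. On the FFD, Spp1 was the largest term of both sums, at a mean of 268 CPM. The other cholangiocyte markers had FFD means from 0.953 (Cftr) to 10.4 CPM (Epcam), so that sum is mostly Spp1. Sinusoidal endothelial markers overlapped, at 201 to 390 against 175 to 382 CPM, 1 of 7 higher. T and NK cell markers (3.51 to 11.3 against 2.89 to 12.7 CPM, 1 of 12 higher) and B cell markers (2.48 to 11.5 against 2.55 to 10.4 CPM, 0 of 5 called) overlapped as well. Neutrophil markers summed to 1.37 to 161 against 0.288 to 2.17 CPM, and all 4 that could be tested were higher. Among the markers of each list, none had 3 counts or fewer in every library.

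Ratios of counts within a library, which do not depend on scaling, asked whether related genes moved unequally. Atp6v0d2 relative to Atp6v0d1, the isoform of the same subunit found in most cells, was at 0.0708, 0.116 and 0.194 on the FFD and at 0.00257, 0.0184 and 0.0766 on the control diet. In 10 FFD libraries the ratio was above the control maximum, and the mean log2 ratio differed by 2.32 (two-sided permutation test with 100000 resamples, adjusted p = 1.33e-05 over the 4 ratios, from the smallest p they can give). Atp6v0d1 itself stood at 79.2 ± 3.68 CPM on the FFD and 80.3 ± 14.2 on the control diet (SD, n = 12 each), a log2 fold change of -0.02 (adjusted p = 0.855, edgeR). Ctss relative to Ctsl was at 0.119, 0.221 and 0.364 against 0.0285, 0.0595 and 0.123, a mean log2 difference of 1.92 (permutation test, adjusted p = 1.33e-05). In 11 FFD libraries that ratio was above the control maximum.

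Lamp2 relative to Lamp1 went the other way. Their count ratio was at 0.398, 0.508 and 0.667 on the FFD and at 0.618, 0.811 and 1.07 on the control diet, and all 12 FFD libraries lay below the control median. The mean log2 ratio differed by -0.65 (permutation test, adjusted p = 1.33e-05). Cd68 relative to Adgre1, a macrophage surface receptor that is not lysosomal, was at 0.460, 0.614 and 1.07 on the FFD and at 0.275, 0.448 and 0.670 on the control diet. All 12 FFD libraries lay above the control median and 5 above the control maximum, with a mean log2 difference of 0.48 (permutation test, adjusted p = 0.00376). Adgre1 itself was at 47.1 ± 20.2 CPM on the FFD and 18.7 ± 11.2 on the control diet (SD, n = 12 each), a log2 fold change of 1.32 (adjusted p = 6.02e-04, edgeR). Within the libraries with Xist below 1000 counts the Cd68 ratio differed by 0.36 (exact permutation test, two-sided, 6 against 6, p = 0.169), and within those above by 0.61 (exact p = 0.00216, the smallest that 6 against 6 allow).

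**Figure D4:**
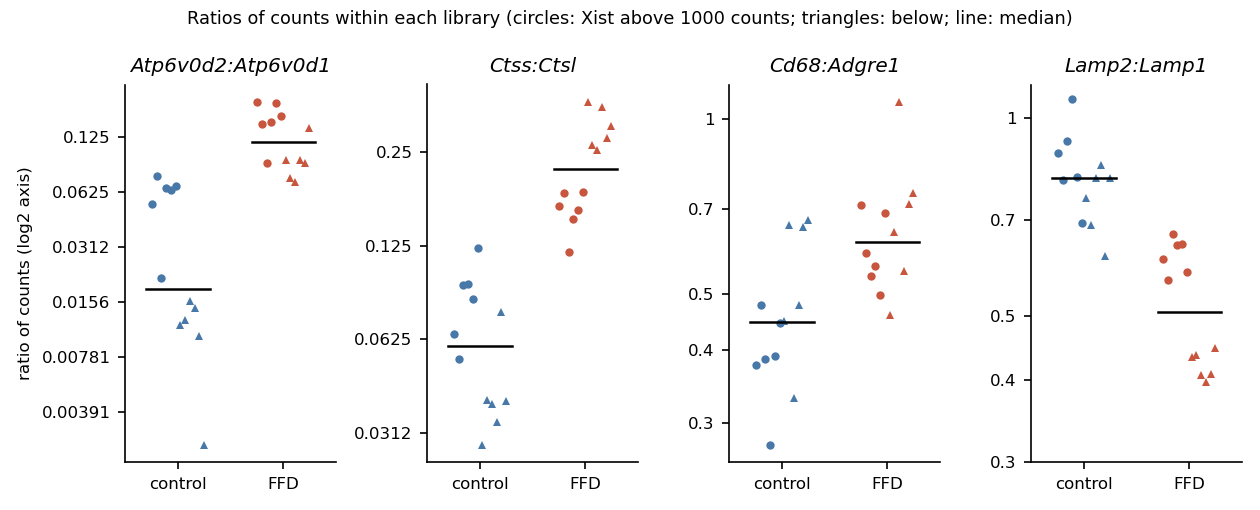
Ratio of counts of 4 gene pairs in each library, on log2 axes that differ between panels. Circles are replicates 1 to 6 (Xist above 1000 counts), triangles replicates 7 to 12, and lines the median of 12. Atp6v0d2:Atp6v0d1 and Ctss:Ctsl are higher on the FFD with medians of 0.116 and 0.221, Cd68:Adgre1 overlaps between the diets, and Lamp2:Lamp1 is lower with a median of 0.508.

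The diet difference of several members was not the same in the 2 sets of libraries. Among the 12 libraries with Xist above 1000 counts, 7 members were called higher (2.90% of all genes) and 0 lower (0.882%). Among the 12 with Xist below 1000 counts, 17 were called higher (14.4% of all genes) and 1, Lamp2, lower (7.99%). The 7 were Ctss, Lgmn, Galns, Psap, Laptm5, Cd68 and Atp6v0d2, and each was also called in the other set. Ctsb, Ctsk, Ctse, Gusb and Hexa were called over all 24 libraries and not among those with Xist above 1000 counts, where their adjusted p were 0.0174, 0.0553, 0.0753, 0.0302 and 0.0366 (edgeR). Their log2 fold changes in that set were 0.38, 1.12, 2.82, 0.41 and 0.59, so Ctsb and Gusb missed the fold threshold as well, while Ctse stood above its 2.49 over all libraries with an SE of 1.01. That value of Ctse rests on FFD replicate 3, at 5.97 CPM. The other FFD libraries of the set were at 0.112 to 0.398 CPM, and its highest control library was at 0.644 CPM. Ctsd, Ctsw, Gla, Glb1 and Man2b1 were called higher among the libraries with Xist below 1000 counts and not over all 24. The interaction described next was not called for any of these 10 genes. The medians over the 39 were 0.15 above and 0.35 below 1000 counts of Xist, against 0.01 and -0.03 over all genes.

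A test of the difference itself, the interaction of diet and set, called 5 members, Ctsc, Ctss, Lgmn, Laptm5 and Cd68 (4.04% of all genes were called). With library totals alone, 12 member interactions were called (7.36% of all genes). Of the 39, 28 had an interaction above 0 (47.4% of all genes), the diet difference being higher where Xist was below 1000 counts, and 14 had an unadjusted interaction p under 0.05 (23.9% of all genes). Ctss rose by 0.86 on the log2 scale in the set with Xist above 1000 counts and by 2.65 in the other, an interaction of 1.79 (SE 0.26, adjusted p = 1.13e-04, edgeR). The sets differed on both diets, in opposite directions. On the FFD, Ctss ranged from 77.3 to 98.0 CPM in replicates 1 to 6 and from 120 to 166 in replicates 7 to 12. On the control diet it ranged from 30.8 to 73.9 and from 16.1 to 35.2. Laptm5 and Cd68 had the same pattern, with interactions of 1.52 and 1.60. Ctsc differed in another way. Its control levels were 108 to 153 CPM in replicates 1 to 6 and 38.7 to 69.7 in replicates 7 to 12, while its FFD levels overlapped between the sets (85.2 to 112 and 59.4 to 119). Its log2 fold changes were -0.39 and 0.63, neither called, and its interaction was 1.01 (SE 0.21, adjusted p = 0.00280, edgeR).

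Atp6v0d2 was lower in replicates 7 to 12 on both diets. Its medians were 12.4 CPM in replicates 1 to 6 and 7.40 CPM in replicates 7 to 12 on the FFD, and 4.98 and 0.990 CPM on the control diet. Its log2 fold changes were 1.54 and 2.92, and the interaction of 1.38 (SE 0.41, adjusted p = 0.0325, edgeR) was not called. Marker sums of several cell types differed between the sets as well. On the FFD, general macrophage markers summed to 694 to 761 CPM in replicates 1 to 6 and to 759 to 1300 in replicates 7 to 12. On the control diet they lay the other way, at 319 to 644 and 212 to 341. Markers of recruited macrophages summed to 341 to 434 and 596 to 1230 CPM on the FFD and overlapped on the control diet, at 148 to 296 and 82.0 to 315. Hepatocyte markers were at 75800 to 101000 CPM in FFD replicates 1 to 6 and at 43300 to 54800 in FFD replicates 7 to 12. Stellate cell and fibroblast markers (378 to 582 and 630 to 893 CPM) and cholangiocyte markers (31.6 to 176 and 258 to 887 CPM) did not overlap between the sets on the FFD either, and these 3 lists overlapped between the sets on the control diet. The cholangiocyte and recruited macrophage sums are not independent, as Spp1 was the largest term of both on the FFD. Adgre1 had an interaction of 2.02 (adjusted p = 9.47e-04, edgeR), and the part of these cells in the interaction of the members was not tested.

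**Figure D5:**
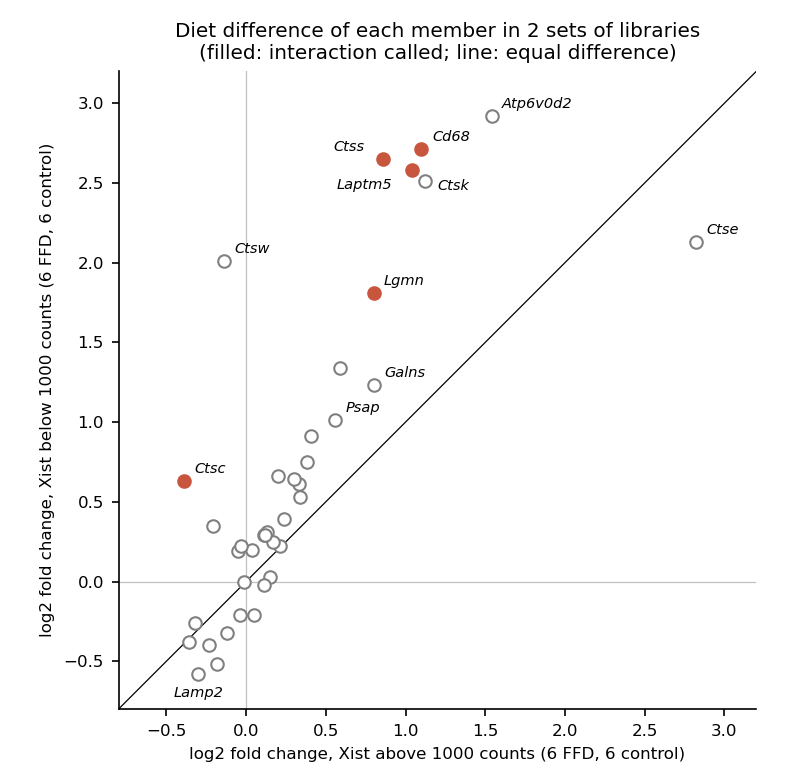
Log2 fold change of each of the 39 members among the 12 libraries with Xist below 1000 counts (vertical axis) against that among the 12 with Xist above (horizontal axis), with the line of equal differences. Filled points are the 5 members whose interaction was called, Ctsc, Ctss, Lgmn, Laptm5 and Cd68, and all 5 lie above the line.

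Other lysosomal genes, 137 in a list that leaves out the members, gave 128 that could be tested, of which 16 were called higher and 1 lower, with a median of 0.06. The 16 were 12.5% of the genes tested, near the 13.2% of all genes, and the 1 was 0.781%, against 4.99%. Library totals alone gave 37 higher, or 28.9% against 21.4% of all genes. Cd63, a tetraspanin of lysosomes and exosomes, rose most, from 7.32 ± 4.22 to 53.5 ± 28.3 CPM (SD, n = 12 each), a log2 fold change of 2.87 (SE 0.31, adjusted p = 4.78e-07, edgeR) with no overlap between the diets. Epdr1, an ependymin-related lysosomal protein, followed at 2.58 (adjusted p = 1.22e-05) and Rragd, a small GTPase that signals amino acids to mTORC1 and is a known target of TFEB, at 2.49 (adjusted p = 1.26e-05, both edgeR). Rragd was at 3.93, 9.02 and 50.4 CPM on the FFD and at 1.68 in the median control library, and the diets overlapped. Fnip1, a partner of folliculin in the same signalling, was the 1 gene called lower, at -0.56 (adjusted p = 0.00275, edgeR). Mitf and Tfec, relatives of Tfeb, stood at 0.31 (adjusted p = 0.0373) and 0.64 (adjusted p = 0.0185), and neither was called.

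By group, and beside the 13.2% of all genes, 6 of 33 other hydrolases, 5 of 29 other membrane proteins, 2 of 20 V-ATPase genes, 1 of 24 trafficking genes, 1 of 16 genes of the mTORC1 and MiT/TFE axis and 1 of 6 cathepsin inhibitors were called higher. All 6 inhibitors tested had log2 fold changes above 0, from 0.31 to 1.82, and 5 of them did not pass the test. Among the libraries with Xist above 1000 counts, 3 of the 128 were called higher (2.34%, against 2.90% of all genes), and among those below, 23 (18.0%, against 14.4%). In 6 of the 128 (4.69%, against 4.04%) the interaction was called. The shares of 2.34% and 4.69% lay close to those of all genes. Neither these shares, nor that of 18.0%, nor the counts by group were tested.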

How the data were processed

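The deposited table holds raw counts of reads, 1 column for each of 24 poly(A) libraries from whole mouse livers and 1 row per Ensembl gene, which the authors did not normalize. The submitters' processing notes name bcl2fastq, STAR 2.7.3a and mm10. The study's RNA-seq methods name a stranded mRNA kit and, with a human reference, an exon quantification pipeline and PISCES. The program, annotation and strand setting used to count the mouse reads are not given in the sources used here. Symbols were found for 51745 of 56205 gene IDs in GENCODE M21 and RefSeq tables (GRCm38, the same build), which also gave exon lengths and overlaps, and the other 4460 IDs had none.

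The diets were compared with the quasi-likelihood test of edgeR 4.0.16 (R 4.3.3) after TMM scaling, without covariates. A gene entered the fit if 12 or more libraries had 1 count or more, which 17913 genes did, and their p-values were adjusted by the Benjamini-Hochberg method. Calls used the study's own cutoffs for RNA-seq, an adjusted p of 0.01 and a log2 fold change of 0.5 in either direction. Standard errors (SE) were derived from the F statistic. The script was tested on simulated data. Ratios used log2 of counts plus 0.5 and permutation tests, two-sided, drawn 100000 times, or exact where 6 libraries were set against 6. Promoter windows were searched for 3 motifs on both strands.

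The labels give the diet of a library but no sex, so the main fit had no such term. The libraries were also split at 1000 Xist counts into 2 sets, which are not groups of the labels, for separate fits, a covariate and an interaction. Counts of any 2 libraries of a diet differed by more than sampling noise (chi-square over degrees of freedom at least 10.1 on the FFD and 18.3 on the control diet). Same-numbered libraries were not taken as pairs, as the labels tie no number to an animal or batch. The correlation of their deviations from the mean of their diet was over 0.1 for 11 of the 12 numbers, running from -0.093 to 0.541. Same-numbered libraries also lie in the same set, a difference that those deviations still hold, so the correlation cannot decide on pairing. Alternatives were library totals or DESeq2 size factors for scaling, DESeq2 1.42.0, limma-voom 3.58.1, 3 other filters, 2 other thresholds, a replicate block, 1 surrogate variable (sva 3.50.0), a pseudocount of 0.1 and each library left out. A fit without 3 libraries was added after seeing the data.

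The members, gene lists and tests were chosen with earlier results of these data known. Named genes were all members, of the called pathway genes the 3 that rose most and the 3 that fell most (1 fell), Atp6v0d1, Mitf, Tfec, Adgre1 and Xist, with 1 further gene that is not reported here. Of each marker list the first gene was also covered. At these depths 3 counts equal 0.167 CPM in the median control library, so the levels of Ctse, Ctsw and Ctsk carry a large counting error.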

Additional observations from a re-analysis of the deposited data

Results flagged for a closer look

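The diet differences of 5 members differed between the 2 sets of libraries by the test of the interaction itself (edgeR's quasi-likelihood test, Benjamini-Hochberg adjustment over all genes), each being higher where Xist was below 1000 counts. Ctss differed by 1.79 on the log2 scale (SE 0.26, adjusted p = 1.13e-04), with log2 fold changes of 2.65 in that set and 0.86 in the other. The leukocyte membrane genes Cd68 and Laptm5 differed by 1.60 (SE 0.33, adjusted p = 0.00302) and 1.52 (SE 0.26, adjusted p = 5.19e-04). Legumain, Lgmn, differed by 1.0 (SE 0.22, adjusted p = 0.00404). In these 4 genes the diet difference passed the thresholds in both sets. Ctsc differed by 1.01 (SE 0.21, adjusted p = 0.00280), with log2 fold changes of -0.39 and 0.63 that were each not called. The interaction was called for 4.04% of all genes. With library totals alone it was called for 12 members and 7.36% of all genes. General macrophage markers, summed, were at 694 to 761 CPM in replicates 1 to 6 and at 759 to 1300 CPM in replicates 7 to 12 on the FFD, and at 319 to 644 and 212 to 341 CPM on the control diet. Hepatocyte markers on the FFD were at 75800 to 101000 and 43300 to 54800 CPM in the same sets. The part of these cells in these differences was not tested.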

How the results depend on the processing

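Scaling by library totals alone gave 19 members higher, 37 other lysosomal genes higher and 0 lower, and 12 member interactions. Where Xist was above 1000 counts, 7 members and 3 other genes were higher. Where it was below, 17 members and 23 other genes were higher, and 1 member and 2 other genes were lower. An adjusted p of at most 0.05 with no fold threshold gave 19 of 39 members higher and 4 lower, and 31 of 128 other genes higher and 11 lower. Of all genes, 20.7% were higher and 18.9% lower at that cutoff. A log2 threshold of 1 took the call from the members Ctsb (0.54), Gusb (0.66), Psap (0.77) and Hexa (0.95). It left 6 other genes higher and 0 lower. Leaving out FFD replicates 3 and 9 and control replicate 10 together gave 2 other genes lower. The log2 ratio of Cd68 to Adgre1 differed by 0.36 (exact permutation p = 0.169) where Xist was below 1000 counts. The cause of these moves was not tested.

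Leaving out 1 library gave 12 to 13 members higher, 0 lower, 5 to 6 member interactions, 13 to 18 other genes higher and 0 to 2 lower, the 0 being without control replicate 4. The ratio differences then ran from 2.05 to 2.47 (Atp6v0d2), 1.82 to 2.02 (Ctss), 0.42 to 0.54 (Cd68) and -0.69 to -0.61 (Lamp2). A replicate block, with numbers that were not taken as pairs, gave 12 members higher and changed the call of 0 members, with Ctsk at 1.84 in place of 1.99. No called member changed sign or lost its call under another scaling, test, filter, covariate or left-out library, the edgeR default filter and that of at least 10 counts giving no value for Ctse, and the latter none for Ctsk, Ctsw or Atp6v0d2. The 5 calls lost among the libraries with Xist above 1000 counts were tested on 6 against 6. The other set was also 6 against 6, and there all 5 were called. The cause of the loss was not tested. Ctsd and Gla gained a call with at least 10 counts in every library (0.51 and 0.53).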
